A study of Mus musculus with 38 samples.

Results

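Left ventricles of HFpEF mice treated with TYA-018 were compared directly with those of HFpEF mice treated with empagliflozin. The comparison used the 22 RNA-seq libraries whose titles place them in HFpEF+TYA-018 (n = 11) or HFpEF+SGLT2i (n = 11), of 38 libraries in all, and no library from a vehicle-treated or healthy mouse entered it. The mice were wild-type C57BL6, and both drug groups shared the same disease model, a high-fat diet plus L-NAME, an inhibitor of nitric oxide synthases. The other libraries, HFpEF+Veh (the same model given vehicle, n = 8) and non_failing (healthy mice given vehicle, n = 8), appear below only as levels without a test. TYA-018 is a small-molecule HDAC6 inhibitor, and empagliflozin inhibits the glucose transporter SGLT2. The labels call the mice female, whereas the Y-linked gene Ddx3y was present in all 22 libraries, from 13.4 to 19.1 TPM (transcripts per 1000000 transcripts). The library V2570 is titled HFpEF+TYA-018 although its number lies among those of HFpEF+SGLT2i, and the title was followed. It held the highest TYA-018 value for Wisp2 and the fibroblast markers and the lowest for Hbb-bs, and without it edgeR also called 0 genes, with log2 fold changes of 0.51 for Wisp2 and 0.92 for Hbb-bs. The study counts the replicates of these groups in mice, so p-values measure the spread between hearts. Heart muscle content was checked with cardiomyocyte markers, whose 10 members together took 26040 to 41800 CPM (counts per 1000000) in the 22 libraries. The 10 markers of atrial cardiomyocytes together took 76.8 to 204 CPM under TYA-018 and 53.2 to 178 CPM under empagliflozin.

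HDAC6 is a mainly cytoplasmic enzyme that removes acetyl groups from tubulin and other proteins. Its inhibition raises tubulin acetylation, which is a protein modification that RNA-seq does not read. SGLT2 recovers glucose from the filtrate in the kidney, and its inhibition leads to glucose loss in urine and shifts whole-body fuel use toward fatty acids and ketone bodies. In heart muscle, fatty acids activate the nuclear receptor PPARA, which turns on genes for fatty acid uptake, oxidation and the sparing of glucose.

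Libraries held 21.5 to 42.6 M counts under TYA-018 (M stands for 1000000) and 22.1 to 59.3 M under empagliflozin, with means of 31.7 ± 5.94 and 35.0 ± 12.7 M (SD, n = 11 each). The difference of -3.30 M was within the spread between libraries (two-sided permutation test, p = 0.451), as was the difference of 0.203 percentage points in the share of mitochondrially encoded counts (33.3 ± 2.70% against 33.1 ± 3.69%, p = 0.883). None of the 110 pairs of libraries within a group agreed within counting noise (the lowest chi-square, divided by its degrees of freedom, was 21.4).

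No single gene differed between the drugs past the threshold of the main test. None of the 13082 genes tested passed an adjusted p of 0.05 (0%; edgeR quasi-likelihood test with Benjamini-Hochberg adjustment), and 1638 genes, or 12.5%, had an unadjusted p under 0.05. Of these, 781 (5.97% of the genes tested) were higher and 857 (6.55%) lower under TYA-018. The 95% interval of a gene's log2 fold change reached a median of 0.23 to either side, and 54 genes had an estimate above 1 in size. DESeq2, another count test, called 112 genes (0.856%) on the same counts, 60 higher and 52 lower under TYA-018, with log2 fold changes between 0.13 and 1.49 in size. Of those 112 genes, 96 were also among the 112 with the smallest edgeR p. The highest edgeR adjusted p among them was 0.218. Throughout, a positive log2 fold change is a higher level under TYA-018 than under empagliflozin.

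The gene closest to the threshold was Ptch1, the receptor for Hedgehog ligands (chromosome 13, 63508328 to 63573598, GRCm38). It ranged from 1.00 to 1.36 TPM under TYA-018 (median 1.30) and from 1.42 to 1.91 TPM under empagliflozin (median 1.63). Every TYA-018 library lay below every empagliflozin library, and Ptch1 was the only 1 of the 13082 genes whose TPM values did not overlap between the groups. Its log2 fold change was -0.32 (SE 0.05, 95% interval -0.44 to -0.21, edgeR adjusted p = 0.051, DESeq2 adjusted p = 0.000392). It passed the edgeR threshold when V2546 or V2565 was left out, and the adjusted p ranged from 0.0238 to 0.205 over the 22 fits that each left out 1 library. Median Ptch1 was 1.57 TPM in HFpEF+Veh and 1.47 TPM in non_failing hearts.

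The other genes with the smallest p that were lower under TYA-018 also overlapped little between the groups, at low levels. Vps13c (chromosome 9, 67840396 to 67995638), a lipid transfer protein at contacts between organelles, was at 0.281 to 0.676 TPM under TYA-018 (median 0.503) and 0.544 to 1.01 TPM under empagliflozin (median 0.689), a log2 fold change of -0.52 (SE 0.11). Iqgap2 (chromosome 13, 95627177 to 95891922), a cytoskeletal scaffold protein, was at 0.206 to 0.429 TPM (median 0.298) against 0.372 to 0.607 TPM (median 0.484), a log2 fold change of -0.56 (SE 0.12). In both genes all 11 TYA-018 libraries lay below the median of the empagliflozin libraries, while the ranges overlapped.

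Igf1r (chromosome 7, 67952827 to 68233668), the receptor for insulin-like growth factor 1, was at 1.06 to 1.48 TPM under TYA-018 (median 1.31) and 1.30 to 1.93 TPM under empagliflozin (median 1.67), a log2 fold change of -0.31 (SE 0.07). Trim56 (chromosome 5, 137105644 to 137116209), a ubiquitin ligase of antiviral signalling, was at 1.43 to 2.69 TPM (median 1.99) against 2.08 to 3.34 TPM (median 2.73), a log2 fold change of -0.32 (SE 0.07). Vps13c, Iqgap2, Igf1r and Trim56 each had an edgeR adjusted p of 0.124 and a DESeq2 adjusted p of at most 0.0111. Further genes were noted after their values were seen. Mkl2, a coactivator of serum response factor, had a median of 2.95 TPM under TYA-018 and 4.01 TPM under empagliflozin, and 10 of 11 TYA-018 libraries lay below all empagliflozin libraries (log2 fold change -0.34, SE 0.07, edgeR adjusted p = 0.124). Gpr116, an adhesion receptor of capillary endothelium, had medians of 10.6 and 15.1 TPM (log2 fold change -0.48, SE 0.11, edgeR adjusted p = 0.150). Slc46a3, a lysosomal transporter, was instead higher under TYA-018, at 5.34 to 11.2 TPM (median 8.78) against 4.15 to 8.84 TPM (median 5.55), and 10 of 11 TYA-018 libraries lay above the empagliflozin median (log2 fold change 0.48, SE 0.12, edgeR adjusted p = 0.150).

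On the other side, 5 genes with higher values under TYA-018 had the smallest p. Cby1 (chromosome 15, 79659199 to 79667660), an antagonist of beta-catenin found at the base of cilia, ranged from 7.78 to 9.99 TPM under TYA-018 (median 8.98) and from 6.63 to 8.90 TPM under empagliflozin (median 7.44), a log2 fold change of 0.32 (SE 0.06). Wfdc1 (chromosome 8, 119666365 to 119688222), a secreted protein with a whey acidic protein domain, ranged from 5.39 to 9.16 TPM (median 6.47) against 3.44 to 6.09 TPM (median 5.26), a log2 fold change of 0.43 (SE 0.09). All 11 TYA-018 libraries lay above the empagliflozin median for both genes. In HFpEF+Veh hearts the median was 8.61 TPM for Cby1 and 6.41 TPM for Wfdc1, nearer to the TYA-018 than to the empagliflozin median.

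Ano4 (chromosome 10, 88948994 to 89344762), of the anoctamin family of membrane proteins, differed in that its empagliflozin median was close to that of HFpEF+Veh. It ranged from 0.862 to 2.53 TPM under TYA-018 (median 1.6) and from 0.526 to 1.27 TPM under empagliflozin (median 0.872), beside medians of 0.855 TPM in HFpEF+Veh and 1.27 TPM in non_failing hearts. The log2 fold change was 0.86 (SE 0.18), and 10 of 11 TYA-018 libraries lay above the empagliflozin median. Wdr89 (chromosome 12, 75630596 to 75669537), a protein with WD repeats, ranged from 1.27 to 4.14 TPM (median 2.01) against 0.876 to 1.85 TPM (median 1.26), a log2 fold change of 0.90 (SE 0.20). The predicted gene 1110032A03Rik (chromosome 9, 50762828 to 50775520) had medians of 8.80 and 7.87 TPM and the log2 fold change was 0.31 (SE 0.07), with ranges that overlapped almost wholly. EdgeR adjusted p-values of Cby1, Wfdc1, Ano4, Wdr89 and 1110032A03Rik lay between 0.124 and 0.150, and those of DESeq2 between 0.00778 and 0.0116.

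**Figure D1:**
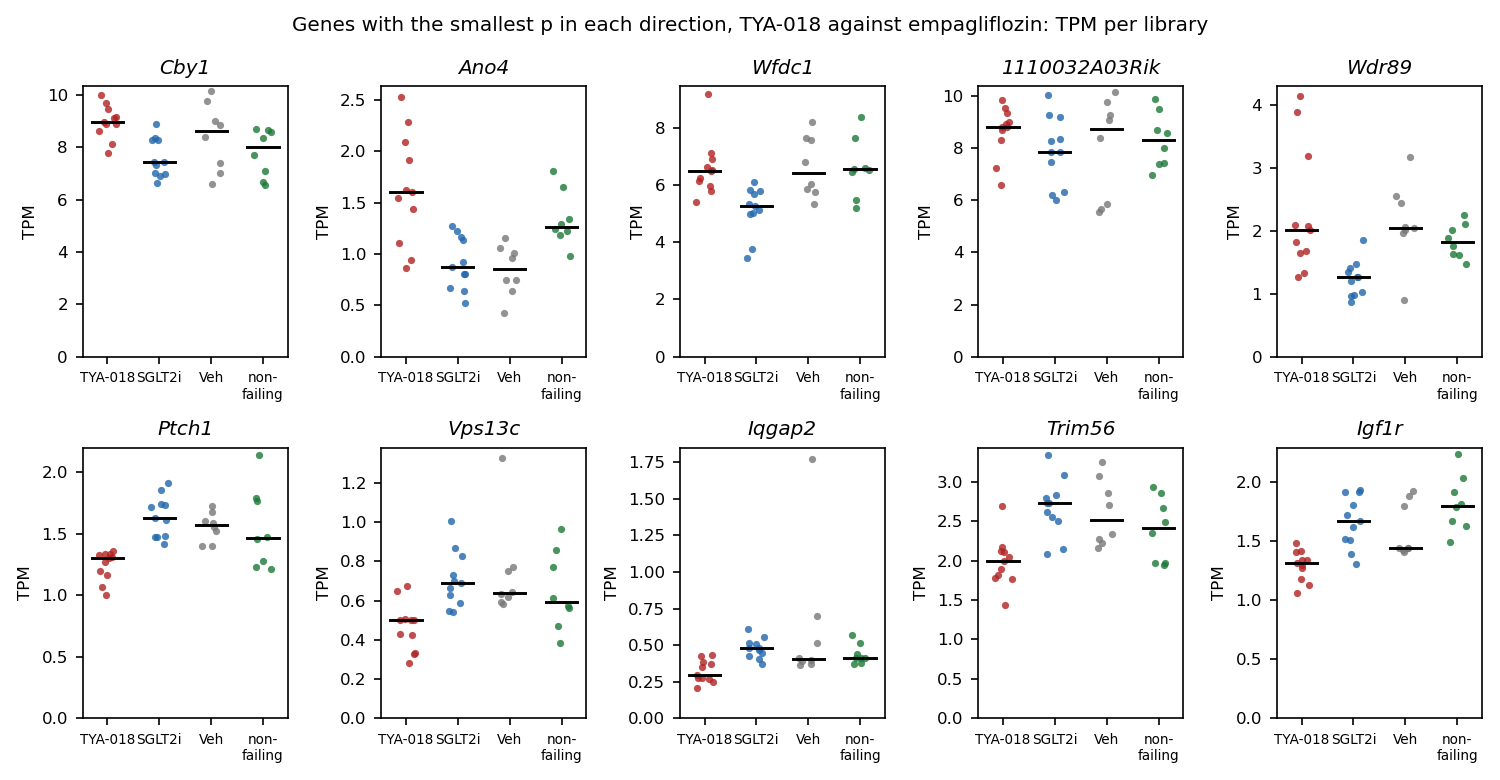
TPM of the 5 genes with the smallest p in each direction (average log2 CPM of at least 0), 1 point per library and a bar at the median, in HFpEF+TYA-018 (n = 11), HFpEF+SGLT2i (n = 11), HFpEF+Veh (n = 8) and non_failing (n = 8); axes start at 0. Ptch1 values end at 1.36 TPM under TYA-018 and begin at 1.42 TPM under empagliflozin, and the ranges of the other 9 genes overlap between the drugs.

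The targets of the drugs were examined at the RNA level. Hdac6 (chromosome X, 7930120 to 7947889) was at 2.90 to 5.25 TPM under TYA-018 (median 3.82) and 2.98 to 5.59 TPM under empagliflozin (median 4.43). The groups overlapped almost fully, and the log2 fold change was -0.08 (95% interval -0.30 to 0.14, edgeR adjusted p = 0.850), from -0.14 without V2550 to -0.04 without V2566. Slc5a2, which encodes SGLT2 (chromosome 7, 128265657 to 128272430), had a count in 7 of 22 libraries and more than 3 counts in 2 of them, so it was not tested and no difference was detectable at this depth. Among 26 genes for deacetylases and enzymes of tubulin modification, 9 were higher and 17 lower, with a median log2 fold change of -0.02. That median was 0.0006 without V2551, and 0.01 with the length skew of the libraries as a covariate (15 higher, 11 lower). Hdac7, a class II deacetylase, had the lowest unadjusted p of the Hdac genes, 0.0446 (edgeR), and its log2 fold change was -0.23 (SE 0.11), or -0.05 with the length skew of the libraries as a covariate. Its TPM medians went the other way, at 18.4 under TYA-018 and 17.8 under empagliflozin, and 6 of 11 TYA-018 libraries lay above the empagliflozin median.

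Most listed genes that PPARA is known to turn on had lower values under TYA-018 than under empagliflozin, a shared direction that was not tested. Of 27 listed genes, 23 were tested, and Creb3l3, Cidec, Vnn1 and Cyp4a14 were below the filter on low counts. Values were lower under TYA-018 for 21 of the 23 and higher for 2, with a median log2 fold change of -0.18, beside -0.01 over all genes tested, of which 48.0% were higher. No member passed the edgeR test. An unadjusted p under 0.05 was reached by 7 members, all of them lower under TYA-018, beside 6.55% of all genes in that direction, and DESeq2 called 3 of them (Pdk4, Cpt1a and Acot1).

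Pdk4 (chromosome 6, 5483351 to 5496309) encodes the kinase that inhibits pyruvate dehydrogenase and so spares glucose. It ranged from 80.1 to 209 TPM under TYA-018 (median 128) and from 138 to 385 TPM under empagliflozin (median 213). All 11 TYA-018 libraries lay below the empagliflozin median and 6 lay below all empagliflozin libraries. The log2 fold change was -0.62 (SE 0.16, 95% interval -0.96 to -0.28, edgeR adjusted p = 0.150, DESeq2 adjusted p = 0.0291). HFpEF+Veh hearts had a median of 115 TPM and non_failing hearts 73.1 TPM, so the empagliflozin group held the highest median of the 4 groups.

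Cpt1a (chromosome 19, 3322334 to 3385733), a carnitine palmitoyltransferase that commits fatty acids to mitochondrial oxidation, ranged from 7.46 to 11.0 TPM under TYA-018 (median 8.73) and from 8.94 to 12.2 TPM under empagliflozin (median 10.7), with 10 of 11 TYA-018 libraries below the empagliflozin median. Its log2 fold change was -0.26 (SE 0.06). Acot1 (chromosome 12, 84009490 to 84018371), an acyl-CoA thioesterase, ranged from 1.97 to 7.44 TPM (median 3.35) against 3.95 to 17.9 TPM (median 6.10), a log2 fold change of -0.91 (SE 0.25). Acot1 has close paralogs, between which the authors' quantification divides shared reads, so its level is less certain. As with Pdk4, the empagliflozin group had the highest median of the 4 groups for Cpt1a (9.83 TPM in HFpEF+Veh, 7.04 in non_failing) and Acot1 (3.79 and 1.36 TPM).

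Ucp3, a mitochondrial uncoupling protein, had medians of 19.2 and 27.2 TPM (log2 fold change -0.39, SE 0.16). Angptl4, an inhibitor of lipoprotein lipase, had medians of 7.41 and 11.6 TPM (log2 fold change -0.58, SE 0.28). Cpt1b, the muscle carnitine palmitoyltransferase, had medians of 141 and 175 TPM (log2 fold change -0.15, SE 0.07). The fatty acid binding protein gene Fabp3 had medians of 4066 and 4063 TPM (log2 fold change 0.08, or -0.14 with the length skew of the libraries as a covariate), and the fatty acid translocase gene Cd36 had 541 and 606 TPM (log2 fold change -0.18, 95% interval -0.40 to 0.04).

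Promoters of 3 PPARA list genes with low values under TYA-018 are shown, from 250 bases before to 50 after the start, to set their sequence beside their expression. The sequences are from RefSeq (GRCm38.p6), read 5′ to 3′ on the strand of the gene. Capitals mark the half-site AGGTCA or its reverse complement TGACCT, the letters that nuclear receptors such as PPARA recognise in pairs. The Cpt1a window follows RefSeq's start, which lies within the GENCODE span given above and so differs from the start of that span. The windows lie at chr19:3323051-3323350 (plus strand), chr7:100472741-100473040 (plus strand) and chr6:5496229-5496528 (minus strand).
Cpt1a: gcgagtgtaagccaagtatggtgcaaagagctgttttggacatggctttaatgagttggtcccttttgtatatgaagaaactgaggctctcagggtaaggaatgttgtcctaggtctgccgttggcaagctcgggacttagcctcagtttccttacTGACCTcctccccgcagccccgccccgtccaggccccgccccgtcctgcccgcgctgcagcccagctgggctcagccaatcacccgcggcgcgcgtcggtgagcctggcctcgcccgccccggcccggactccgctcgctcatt
Ucp3: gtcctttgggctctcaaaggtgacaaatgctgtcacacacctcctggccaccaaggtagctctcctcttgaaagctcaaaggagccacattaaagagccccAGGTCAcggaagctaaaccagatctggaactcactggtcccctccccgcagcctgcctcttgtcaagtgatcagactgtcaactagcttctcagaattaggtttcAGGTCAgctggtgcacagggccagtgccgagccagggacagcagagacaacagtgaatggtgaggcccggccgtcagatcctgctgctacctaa
Pdk4: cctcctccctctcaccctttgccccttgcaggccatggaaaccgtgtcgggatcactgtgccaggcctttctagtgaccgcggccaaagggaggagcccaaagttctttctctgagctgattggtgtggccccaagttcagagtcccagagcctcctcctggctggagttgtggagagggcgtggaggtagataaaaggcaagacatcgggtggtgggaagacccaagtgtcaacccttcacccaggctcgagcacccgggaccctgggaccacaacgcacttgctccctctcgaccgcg
The half-site occurred once in the Cpt1a window, at 2 places far apart in the Ucp3 window and not in the Pdk4 window. None of the 3 windows therefore held 2 marked half-sites side by side. Of the 23 tested members, 18 had a promoter in the RefSeq table, and 7 of these 18 (38.9%) held the half-site, beside 5340 of all 32851 windows (16.3%). The list was drawn up as known PPARA targets, so a higher share can follow from that choice and does not bear on the difference between the drugs. These are matches of letters in short windows, and binding was not measured.

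Beyond the PPARA list, genes of fatty acid oxidation had smaller differences. Of 27 tested, 22 were lower and 5 higher under TYA-018, with a median log2 fold change of -0.09, and many of these genes are in both lists. That median was 0.00 with 1 surrogate variable (15 higher, 12 lower), -0.03 with the log2 total count as covariate, -0.19 with the length skew as covariate and -0.05 without V2562. Slc27a1, a fatty acid transport protein, had medians of 1.01 TPM under TYA-018 and 1.54 TPM under empagliflozin (log2 fold change -0.59, SE 0.24, edgeR adjusted p = 0.324). Ketone body genes did not share a direction, with 5 of 9 tested genes higher. None of the higher and 2 of the lower members had an unadjusted p under 0.05 (beside 6.55% of all genes in the lower direction), among them Slc16a6, of the monocarboxylate transporter family (log2 fold change -0.195, SE 0.08, edgeR adjusted p = 0.325). Bdh1, which interconverts the ketone bodies, had medians of 23.3 and 18.9 TPM (log2 fold change 0.38, 95% interval -0.01 to 0.78, and 0.15 with the length skew as covariate), and Oxct1, which activates ketone bodies for oxidation, had medians of 135 and 122 TPM (log2 fold change 0.11, 95% interval -0.17 to 0.39). Oxct1 turned to -0.03 with the covariate and ran from 0.05 (without V2571) to 0.21 (without V2562) on leaving out 1 library. For glucose uptake, glycolysis and glycogen, 20 of 29 tested genes were higher under TYA-018, with a median log2 fold change of 0.06 that was 0.01 without V2572 and 0.01 with library size alone (16 of 29 higher). The insulin-responsive glucose transporter gene Slc2a4 had medians of 90.9 and 79.1 TPM (log2 fold change 0.24, SE 0.10), and the lactate dehydrogenase gene Ldha 313 and 265 TPM (log2 fold change 0.24, SE 0.09, and 0.02 with the length skew as covariate). Their edgeR adjusted p-values were 0.328 and 0.298.

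Most tubulin genes, whose alpha subunits HDAC6 deacetylates in microtubules, had higher values under TYA-018, a shared direction that was not tested. Of 19 listed genes, 16 were tested (Tuba3a, Tuba3b and Tube1 were below the filter), and 15 of the 16 were higher, with a median log2 fold change of 0.17. No member passed the edgeR test, 6 had an unadjusted p under 0.05, all higher, beside 5.97% of all genes in that direction, and DESeq2 called Tubb4b and Tubb3. Tubulins are similar in sequence, so the split of reads between close copies is uncertain. Tubb4b (chromosome 2, 25222160 to 25224702), a widely expressed beta-tubulin, ranged from 112 to 173 TPM under TYA-018 (median 120) and from 87.5 to 126 TPM under empagliflozin (median 101). All 11 TYA-018 libraries lay above the empagliflozin median, and the log2 fold change was 0.34 (SE 0.08, 95% interval 0.18 to 0.51, edgeR adjusted p = 0.150, DESeq2 adjusted p = 0.0116).

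Tubb3 (chromosome 8, 123411424 to 123422015), a beta-tubulin known from neurons, was much less abundant, from 0.570 to 1.53 TPM under TYA-018 (median 1.03) and from 0.385 to 0.958 TPM under empagliflozin (median 0.643). Its log2 fold change was 0.71 (SE 0.18). Tuba4a, the most abundant tubulin gene of the list, ranged from 102 to 326 TPM (median 252) against 96.0 to 272 TPM (median 177), which gave a log2 fold change of 0.44 (edgeR SE 0.17, adjusted p = 0.271) with ranges that overlapped widely. Tuba8, a muscle alpha-tubulin, had medians of 48.3 and 41.6 TPM (log2 fold change 0.29, SE 0.11), and Tubg1, the gamma-tubulin that nucleates microtubules, 8.46 and 7.41 TPM (log2 fold change 0.18, SE 0.06).

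**Figure D2:**
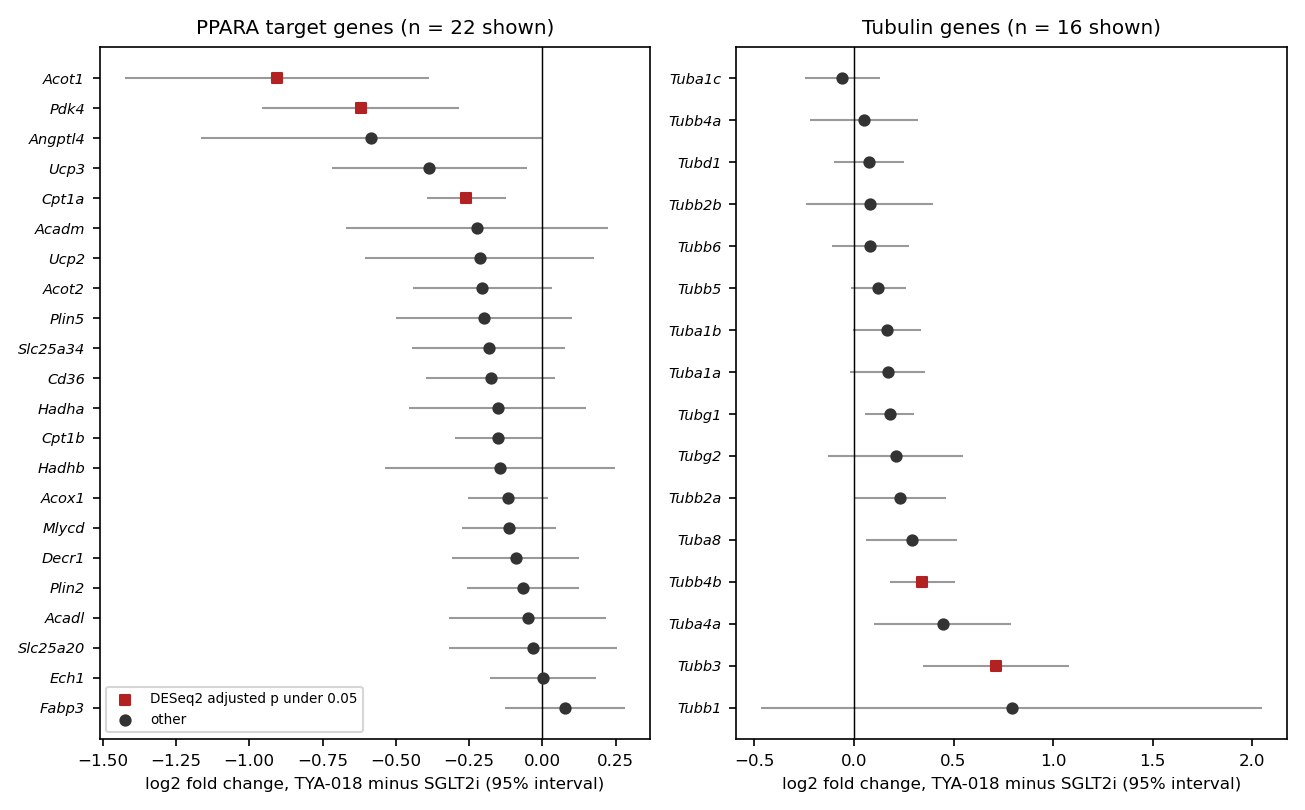
Log2 fold change (TYA-018 minus empagliflozin, edgeR) with its 95% interval for 22 of the 23 tested PPARA list genes and all 16 tested tubulin genes; squares mark genes that DESeq2 called. Values are below 0 for 20 of the 22 PPARA list genes shown and above 0 for 15 of the 16 tubulin genes.

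A list score, the mean of its tested members' log2 CPM after centring each gene over the 22 libraries, shows the spread per library. For the PPARA list it ran from -0.47 to 0.13 under TYA-018 (median -0.08) and from -0.23 to 0.45 under empagliflozin (median 0.12), and 1 of 11 TYA-018 libraries lay above the empagliflozin median. For tubulins it ran from -0.23 to 0.38 under TYA-018 (median 0.16) and from -0.33 to -0.01 under empagliflozin (median -0.07), and 10 of 11 TYA-018 libraries lay above that median. Some other lists were as far apart by this count. It was 11 of 11 for the thyroid hormone and brown adipocyte lists, 10 of 11 for ketone metabolism and 0 of 11 for calcium cycling. Leaving out 1 library at a time gave list medians of log2 fold change from -0.21 (without V2572) to -0.11 (without V2562) for the PPARA list and from 0.15 to 0.20 for tubulins.

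**Figure D3:**
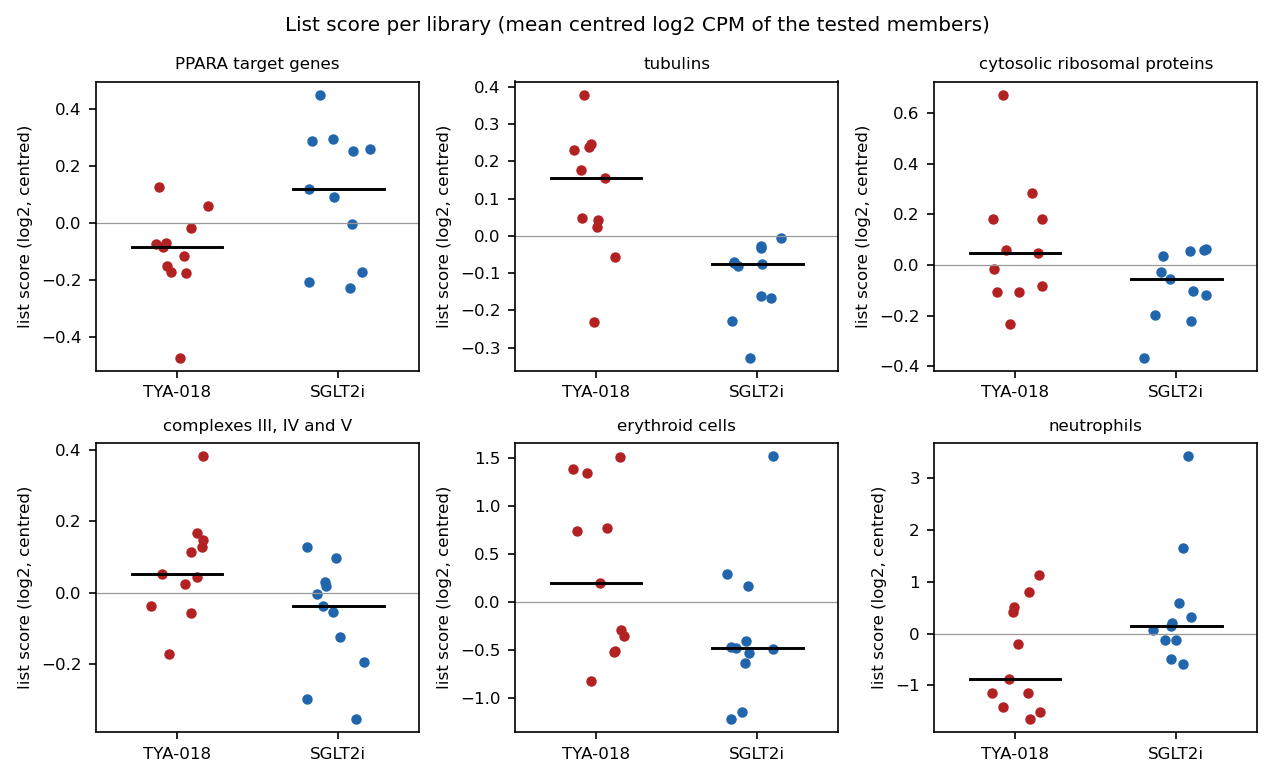
List score per library (mean centred log2 CPM over the tested members) under TYA-018 and empagliflozin, with n = 11 each and bars at the medians. The PPARA list has medians of -0.08 and 0.12 and tubulins 0.16 and -0.07, while V2571 lies highest of the empagliflozin libraries for erythroid (1.52) and neutrophil markers (3.43).

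Much of the remaining pattern ran with the length of the transcript. The length skew of a library, taken as the mean log2 CPM of the shortest 20% of genes minus that of the longest 20% and centred over the libraries, ran from -0.03 to 0.51 under TYA-018 (mean 0.10 ± 0.15) and from -0.23 to 0.03 under empagliflozin (-0.10 ± 0.08, SD, n = 11 each). The difference of 0.19 exceeded the spread between libraries (two-sided permutation test, p = 0.00014, a measure chosen after seeing the data). The highest value, 0.51, was that of V2555, and without it the difference was 0.15 (p = 0.0001). The median log2 fold change went from 0.10 in the shortest 20% of genes (39 to 1191 bases of effective length) through 0.02, -0.01 and -0.04 to -0.09 in the longest 20% (above 3214 bases). Of the shortest group 77.5% of genes were higher under TYA-018, and of the longest 24.1%. The genes DESeq2 called followed the same order, with a median length of 1039 bases for those higher and 4407 for those lower, beside 2054 bases for all genes tested. The part of this skew in single genes was not tested, and the libraries' RNA quality is not given in the sources used here.

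**Figure D4:**
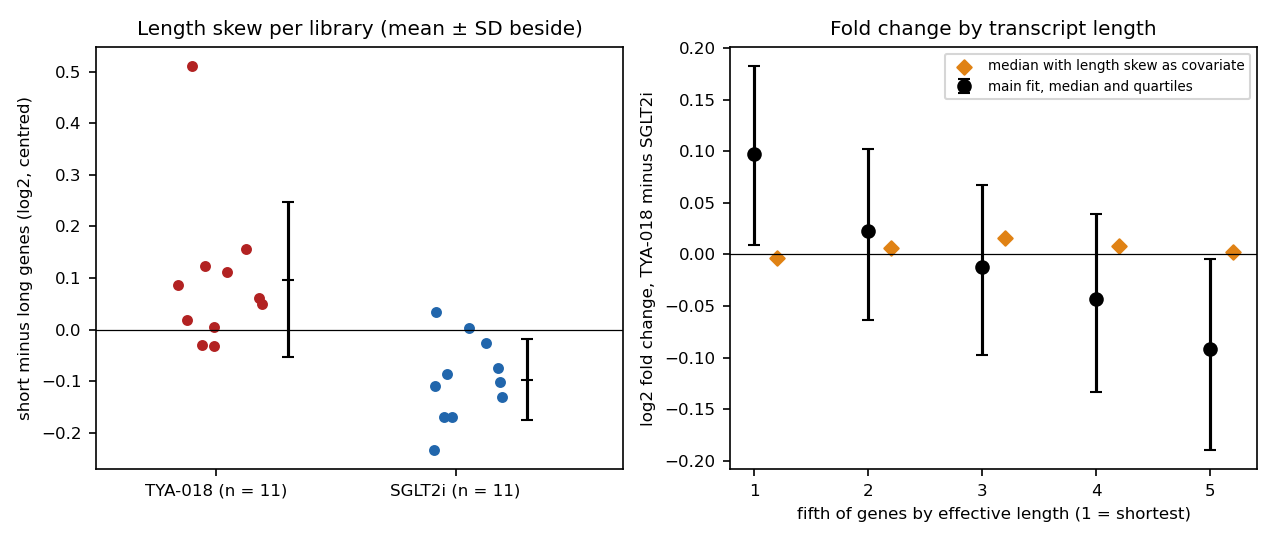
Left, length skew of each library (log2, short minus long genes, centred) with mean ± SD beside the points, n = 11 per group. Right, log2 fold change in 5 equal groups of genes by effective length, as median with quartiles in the edgeR fit and as median in a fit with the skew as a covariate. The edgeR medians fall from 0.10 to -0.09, whereas those with the covariate stay between -0.00 and 0.02. The covariate is the short minus long difference itself, so this flattening was built in.

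The lists were also read with adjustments for this skew, chosen after seeing the data, namely the skew as a covariate in the fit, and subtraction of the smooth trend of log2 fold change with length. Both are built from the length difference itself, so smaller differences in lists of short or long genes were built in. The PPARA and tubulin lists had median effective lengths of 1827 and 1663 bases, beside 2054 for all genes tested. In the length groups that hold those values the median log2 fold change was -0.01 and 0.02. Subtracting the trend could therefore move these lists little, and their keeping a side is no check on the skew. The PPARA list kept a median log2 fold change of -0.22 with the covariate and -0.15 after subtraction. With other covariates that median was closer to 0, at -0.09 with 1 surrogate variable (18 lower, 5 higher), -0.11 with the first principal component, likewise chosen after seeing the data, and -0.12 with the log2 total count. Tubulins kept 0.25 and 0.17. With the covariate the log2 fold change of Ptch1 was -0.34, that of Pdk4 -0.83, that of Ano4 1.03 and that of Tubb4b 0.35, whereas that of Pkd1, a receptor-like protein of primary cilia with a very long transcript, went from -0.61 to -0.22, that of Trim56 from -0.32 to -0.15, that of Igf1r from -0.31 to -0.17, that of Mkl2 from -0.34 to -0.22, that of Cpt1a from -0.26 to -0.17, that of Cpt1b from -0.15 to -0.09, that of Vps13c from -0.52 to -0.31 and that of Slc27a1 from -0.59 to -0.05.

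Respiratory chain and ribosomal protein genes, with median effective lengths of 420 to 951 bases by list, mostly had higher values under TYA-018 in the unadjusted fit. This was so for 32 of 35 complex I genes (median log2 fold change 0.15), 33 of 38 genes of complexes III, IV and V (0.17), 70 of 75 mitochondrial ribosomal protein genes (0.14) and 76 of 77 cytosolic ribosomal protein genes (0.19). An unadjusted p under 0.05 was reached by 11, 18, 30 and 25 of them, all higher, beside 5.97% of all genes in that direction. No member passed the edgeR test, and DESeq2 called 1 gene of complexes III, IV and V and 2 of the mitochondrial ribosomal list. With the length skew as covariate the medians of these lists, in the same order, became -0.03, -0.05, 0.00 and -0.05. With the effective length offset, complex I had 0.12, complexes III, IV and V 0.11 and mitochondrial ribosomal proteins 0.12. With 1 surrogate variable they had 0.16, 0.16 and 0.18. The cytosolic ribosomal median was 0.11 without V2555. Single genes gave small values, such as Cox6a1, a subunit of cytochrome c oxidase, with medians of 219 and 205 TPM (log2 fold change 0.20, SE 0.05, edgeR adjusted p = 0.154), Mrpl55, of the large mitochondrial ribosomal subunit, with 98.5 and 90.9 TPM (0.27, SE 0.07), and Rps2, of the small cytosolic subunit, with 861 and 831 TPM (0.21, SE 0.07). The DESeq2 adjusted p was 0.0259 for both Cox6a1 and Mrpl55 and 0.0608 for Rps2. With the length skew as covariate their log2 fold changes were 0.14, 0.15 and 0.03. The abundant Atp5b, Cox4i1 and Rplp0 had log2 fold changes of -0.05, 0.10 and 0.05, all of which changed sign in some fits. Many ribosomal protein genes have processed pseudogenes that share their reads. The 13 mitochondrially encoded genes had a median log2 fold change of 0.04, with 8 higher, which ran from 0.01 (without V2559) to 0.09 (without V2561) and turned to -0.07 both with the effective length offset and after subtracting the trend with length.

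Genes of 4 lists of the extracellular matrix and its regulators, with median effective lengths of 2513 to 4606 bases by list, mostly had lower values under TYA-018 in the unadjusted fit. Of 40 fibrillar collagen and matrix glycoprotein genes, 28 were lower (median log2 fold change -0.13), as were 17 of 20 basement membrane genes (-0.16), 17 of 21 genes of the TGF-beta pathway (-0.07) and 12 of 17 matrix metalloproteinase and TIMP genes (-0.11). With the length skew as covariate the medians were 0.08, 0.02, 0.05 and -0.04. Without V2571 the fibrillar list had -0.07 and the metalloproteinase list -0.06, and without V2551 the TGF-beta list had -0.04. Small leucine-rich proteoglycans, with a median length of 1638 bases, were instead higher for 7 of 9 tested genes (median 0.07, 0.03 without V2566 and 0.17 with the covariate). Col3a1, a fibrillar collagen, ranged from 9.42 to 23.5 TPM under TYA-018 (median 12.2) and from 9.06 to 22.9 TPM under empagliflozin (median 14.9), a log2 fold change of -0.15 (95% interval -0.47 to 0.17) that was -0.24 without V2570, -0.10 without V2571 and -0.08 without V2572 and turned to 0.11 with the covariate. Hspg2, the basement membrane proteoglycan perlecan, had medians of 74.1 and 73.1 TPM (log2 fold change -0.19, 95% interval -0.42 to 0.04, and 0.08 with the covariate). Tgfbi, a matrix protein induced by TGF-beta, had medians of 3.24 and 5.22 TPM (log2 fold change -0.55, SE 0.19), and Timp3, an inhibitor of metalloproteinases, 59.9 and 68.1 TPM (-0.30, SE 0.11). Their edgeR adjusted p-values were 0.231 and 0.237, and with the covariate their log2 fold changes were -0.17 and -0.14.

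Wisp2, a secreted protein of the CCN family, went against its list in the unadjusted fit. With the length skew as covariate both were higher, at 0.72 for Wisp2 and a median of 0.08 for the list. Wisp2 ranged from 4.37 to 10.7 TPM under TYA-018 (median 4.91) and from 2.00 to 5.53 TPM under empagliflozin (median 4.00), and all 11 TYA-018 libraries lay above that median (log2 fold change 0.62, SE 0.16, edgeR adjusted p = 0.150, DESeq2 adjusted p = 0.0273). The natriuretic peptide gene Nppb, a marker of ventricular wall stress, overlapped almost fully, from 93.5 to 367 TPM (median 227) against 149 to 416 TPM (median 238), with a log2 fold change of -0.17 (95% interval -0.59 to 0.26; -0.23 without V2543 to -0.09 without V2551) and medians of 404 TPM in HFpEF+Veh and 270.0 in non_failing hearts.

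**Figure D5:**
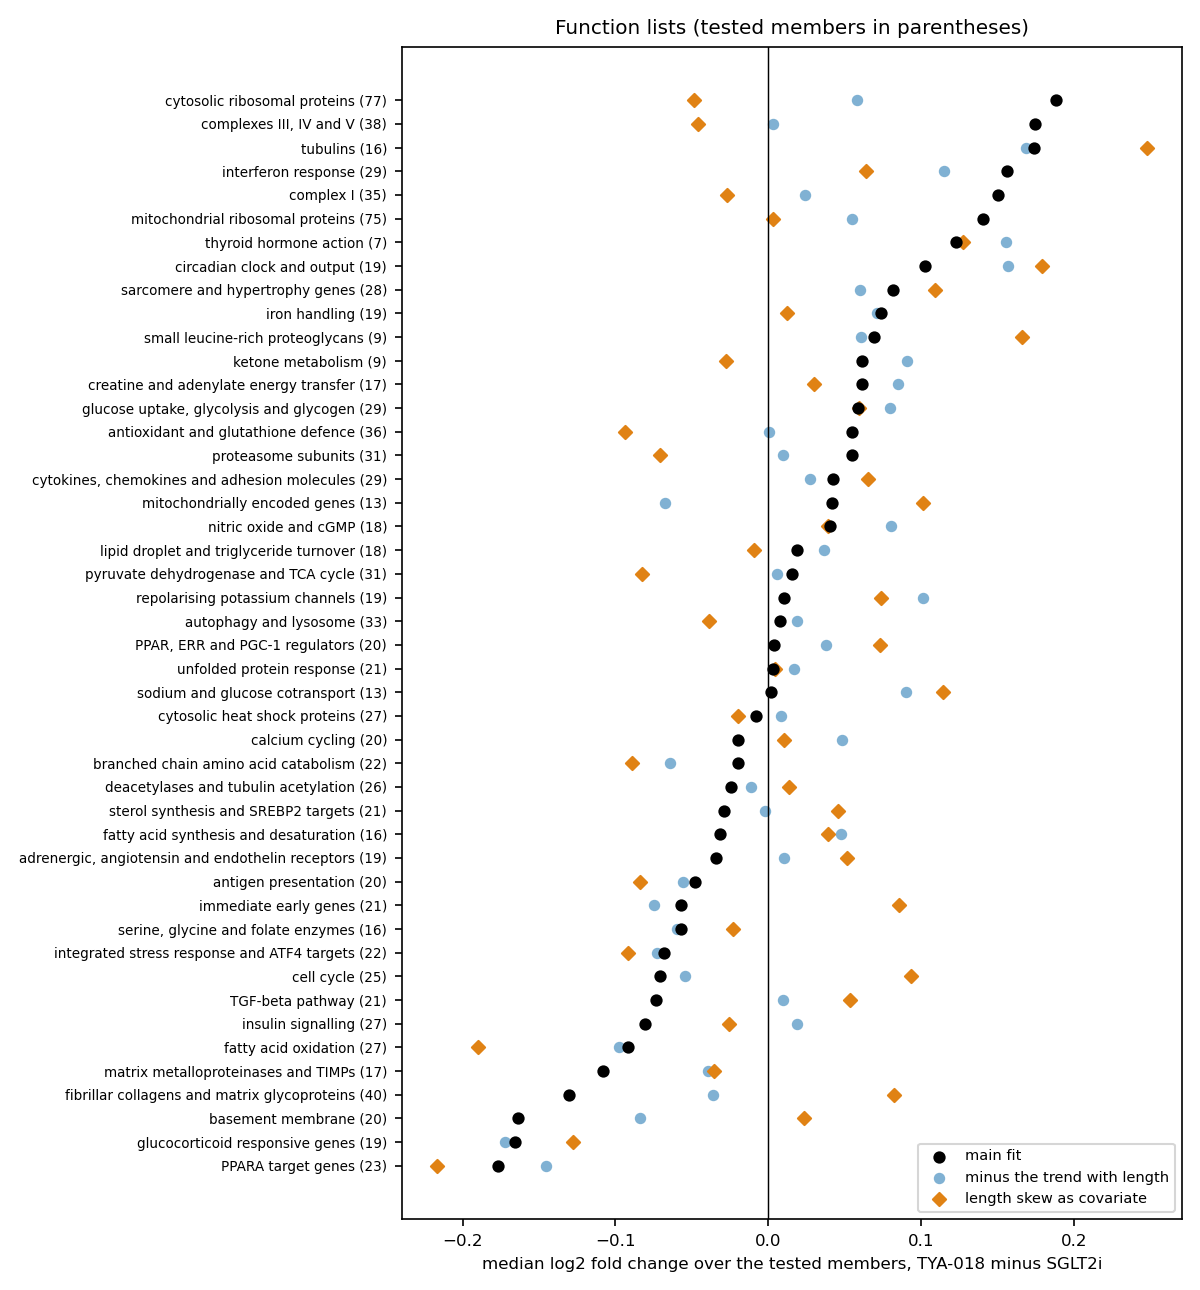
Median log2 fold change (TYA-018 minus empagliflozin) over the tested members of each function list with at least 5 tested members, in the edgeR fit, after subtracting the trend with length, and with the length skew as covariate. The PPARA list (-0.18, -0.15 and -0.22) and tubulins (0.17, 0.17 and 0.25) keep their side of 0, whereas complexes III, IV and V (0.17, 0.00 and -0.05) and the fibrillar collagen list (-0.13, -0.04 and 0.08) do not. Both adjustments are built from the length difference, so smaller differences in lists of short or long genes were built in. The PPARA and tubulin lists have median effective lengths of 1827 and 1663 bases, where the trend is small, so subtracting it could move them little.

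Interferon response genes were higher under TYA-018 for 21 of 29 tested members, with a median log2 fold change of 0.16, 7 members with an unadjusted p under 0.05, all higher, beside 5.97% of all genes in that direction, and none past the edgeR test. Ifit1, an antiviral protein that binds foreign RNA, had medians of 2.46 and 1.76 TPM (log2 fold change 0.57, SE 0.16, edgeR adjusted p = 0.162), and Irf7, a transcription factor of the interferon response, 7.20 and 5.43 TPM (0.36, SE 0.16). The list median was 0.07 without V2551 and 0.06 with the length skew as covariate. With that covariate Ifit1 had 0.41 and Irf7 0.21. In the list of cytokines, chemokines and adhesion molecules 17 of 29 tested genes were higher and 12 lower, with a median log2 fold change of 0.04 that ran from -0.01 (without V2565) to 0.12 (without V2571). Among them 3 in each direction had an unadjusted p under 0.05 (beside 5.97% of all genes higher and 6.55% lower), namely Ccl2, Ccl7 and Vcam1 with higher and Nlrp3, S100a8 and S100a9 with lower values. Ccl12, a chemokine outside that list that was chosen after its values were seen, ranged from 3.96 to 12.6 TPM under TYA-018 (median 5.95) and from 1.84 to 7.30 TPM under empagliflozin (median 4.33), which gave a log2 fold change of 0.95 (edgeR SE 0.24, adjusted p = 0.150, DESeq2 adjusted p = 0.0259). Ccl2 and Ccl7, which attract monocytes, had log2 fold changes of 0.60 (SE 0.24) and 0.68 (SE 0.27). The inflammasome gene Nlrp3 had -0.65 (SE 0.29) and the neutrophil gene S100a8 -1.39 (SE 0.58), which became -0.46 without V2571. Summed macrophage markers overlapped, at 189 to 485 CPM (median 297) against 249 to 445 CPM (median 301).

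Insulin signalling genes were lower for 18 of 27, with a median log2 fold change of -0.08, which became -0.04 without V2571 and 0.02 after subtracting the trend with length. Beside Igf1r, Pdpk1, the kinase that activates AKT, had medians of 2.17 and 2.72 TPM (log2 fold change -0.27, SE 0.11, edgeR adjusted p = 0.329). Of the 19 tested glucocorticoid responsive genes 14 were lower, with a median of -0.17 that became 0.01 without V2571. Clock genes and their outputs were higher for 12 of 19, with a median of 0.10 that became 0.03 without V2550. Within that list, Cry1 had medians of 3.34 and 2.72 TPM (log2 fold change 0.24, SE 0.09), while Per1, chosen after its values were seen, was at 10.3 to 25.6 TPM under TYA-018 (median 20.7) and 15.5 to 41.6 TPM under empagliflozin (median 28.2), which gave a log2 fold change of -0.44 (edgeR SE 0.17, adjusted p = 0.303) and -0.24 with the length skew as covariate. In the thyroid hormone list 5 of 7 tested genes were higher, with a median of 0.12. Other lists had median log2 fold changes of 0.08 for 28 sarcomere and hypertrophy genes, -0.02 for 20 calcium cycling genes, -0.01 for 27 cytosolic heat shock protein genes, 0.00 for 21 genes of the unfolded protein response, 0.01 for 33 autophagy and lysosome genes and 0.05 for 31 proteasome subunits. The sarcomere median was 0.03 without V2571 and the proteasome median 0.02 without V2555. The medians of the calcium cycling, heat shock, unfolded protein and autophagy lists took either sign when 1 library was left out, between -0.05 and 0.04.

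Among the 17 cell type lists, neutrophil and erythroid markers had the largest median log2 fold changes in size. In bulk tissue, fewer cells of a type and less RNA per cell cannot be told apart. All 9 erythroid markers had higher medians under TYA-018, with a median log2 fold change of 0.68, and their sum ran from 2610 to 13010 CPM (median 6735) against 2472 to 8711 CPM (median 3564). The beta-globin gene Hbb-bs ranged from 1976 to 10140 TPM under TYA-018 (median 5638) and from 2087 to 7014 TPM under empagliflozin (median 2943), which gave a log2 fold change of 0.82 (edgeR SE 0.26, adjusted p = 0.201). Reads of the globin copies may be split between them. Alas2, the erythroid enzyme of heme synthesis, had medians of 30.0 and 18.4 TPM (0.68, SE 0.31). Tfrc, the transferrin receptor that brings iron into cells, ranged from 4.89 to 51.2 TPM (median 23.3) against 8.56 to 19.3 TPM (median 12.8), which gave a log2 fold change of 0.87 (edgeR SE 0.27, adjusted p = 0.194).

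Neutrophil markers were lower under TYA-018 for all 6 tested of 10 listed genes, with a median log2 fold change of -1.28 that became -0.50 without V2571. Their sum ran from 6.07 to 34.7 CPM under TYA-018 (median 9.0) and from 10.3 to 194 CPM under empagliflozin (median 17.7), with the highest value in V2571. S100a9, a calcium-binding protein of neutrophils, ranged from 1.27 to 20.2 TPM (median 3.39) against 5.14 to 111 TPM (median 9.57), which gave a log2 fold change of -1.45 (edgeR SE 0.58, adjusted p = 0.306). That log2 fold change ran from -1.80 to -0.55 on leaving out 1 library. B cell markers were lower for all 9 tested genes, with a median log2 fold change of -0.38 and sums of 8.88 to 18.6 CPM (median 14.2) against 12.3 to 28.6 CPM (median 19.2). The parts of blood cell content in the differences above were not tested. Markers of fibroblasts (971 to 2120 against 1196 to 2115 CPM), endothelial cells (2182 to 3329 against 1926 to 4588 CPM) and pericytes with smooth muscle (2009 to 2676 against 2086 to 2698 CPM) overlapped between the drugs.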

How the data were processed

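RNA of 38 left ventricles in 4 groups was captured by poly(A) and sequenced, and the 22 libraries of HFpEF+TYA-018 and HFpEF+SGLT2i were compared here. Groups and library numbers (V2543 and so on) came from the sample titles. The deposited expected counts per gene were estimated by the authors with Salmon (1.6.0 in the submitters' processing notes) and summed to genes, with effective lengths in a table of their own, and the deposited TPM values were scaled by the authors within each library. Unused columns of per-sample values numbered 0. The submitters' notes list a human build, while the study's methods name GRCm38 and the symbols are mouse: 27812 of 29564 were found in GENCODE M21, which gave the coordinates.

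Expected counts were rounded to whole numbers, filtered with filterByExpr, scaled by TMM and tested with edgeR 4.0.16 (quasi-likelihood, 22 libraries, group as the only term; R 4.3.3), with Benjamini-Hochberg adjustment over 13082 genes and a threshold of 0.05. The pipeline was tested on simulated data. DESeq2 1.42.0, limma 3.58.1 on log2(TPM + 1) without the mitochondrially encoded genes, sva 3.50.0, other scalings, filters, covariates and leaving out each library were alternatives. Two-sided permutation tests used 100000 resamples (scipy 1.17.1). Depth was 21.5 to 59.3 M counts per library, and intervals of fold changes cover the spread between libraries.

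Named genes were the targets Hdac6 and Slc5a2, called genes, the 5 of smallest p in each direction where fewer were called (average log2 CPM of at least 0), and called or abundant members of each list. Every other gene, including list members picked for a small p, was chosen after its values were seen. The members and the 64 gene lists (47 functions, 17 cell types; 1313 of 1314 genes matched, 12 by synonym) were chosen with earlier results of these data known. The directions of lists are descriptions, and no list was tested. Some genes that were analysed are not reported here by name.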

Additional observations from a re-analysis of the deposited data

How the results depend on the processing

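No paired analysis was made, because the study assigned mice to the treatments at random and the titles give no pairing. edgeR called 0 genes, with 1638 at an unadjusted p under 0.05, and also 0 with library size alone, upper quartile factors, no filter on low counts, all 4 groups in 1 model, robust dispersion, limma on TPM with either pseudocount (1 or 0.1), and, as alternatives chosen after seeing the data, the length skew as covariate and leaving out V2555 with V2571. DESeq2 called 112 (60 higher, 52 lower under TYA-018), 1 surrogate variable 8 (1 higher, 7 lower), the log2 total count as covariate 5 (all lower), the effective length offset 3 (all lower), a filter at an average log2 CPM of 1 called 1 (lower) and the first principal component as covariate, likewise chosen after seeing the data, 345 (163 higher, 182 lower). Leaving out 1 library gave 0 to 1 calls in all, 0 higher and 0 to 1 lower, the 1 being Ptch1 without V2546 or V2565. The cause of these differences was not tested. The first component carried 21.3% of the variance.

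The depth difference ranged from -4.59 to -0.873 M on leaving out 1 library. The mitochondrial share turned from 0.203 to -0.451 percentage points as a share of TPM and ranged from -0.205 (without V2559) to 0.841 (without V2572). Library size alone moved the median of all genes to -0.06. Of 84 genes named or considered, 77 kept their sign in every other fit that tested them (36 or 37 fits). With the length skew as covariate, Fabp3 became -0.14 (0.08 in the edgeR fit), Oxct1 -0.0279, Cox4i1 -0.0725, Rplp0 -0.0920, Col3a1 0.11 and Hspg2 0.0821. With limma on log2(TPM + 1) and log2(TPM + 0.1) Cox4i1 was -0.0145 in both, Rplp0 -0.0248 in both and Atp5b 0.00752 in both. Atp5b was 0.0584 with the length offset and 0.00556 with 1 surrogate variable.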
